A study of Mus musculus with 6 samples.

Results

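The nuclear genes of the respiratory chain were compared between bone marrow macrophages of wild-type mice and of mice without RKIP. They were chosen by name: every row whose symbol starts with Nduf, Uqcr, Cox4, Cox5, Cox6, Cox7, Cox8 or Atp5, together with Sdha, Sdhb, Sdhc, Sdhd and Cyc1, and without the 11 names that carry the pseudogene mark -ps. The rule found 95 genes of the 27458 in the table. They comprise 36 subunits of complex I, 4 of complex II, 9 of complex III, 17 of complex IV (Ndufa4 included), 17 of complex V, 8 Nduf assembly factors and 4 copies that the annotation calls processed pseudogenes. RNA was sequenced from 3 WT libraries (RKIP+/+ mice) and 3 KO libraries (RKIP-/- mice). The cells of both groups were primary macrophages of the bone marrow treated with M-CSF, the growth factor that drives marrow cells to become macrophages. The labels used here give no age, sex or strain. Nor do they state whether each library is a different mouse or culture, and the p-values therefore reflect only how these libraries vary, which could be technical variation. RKIP (Raf kinase inhibitor protein), encoded by Pebp1, is a cytosolic protein that binds Raf kinases, and the study asked how it acts in macrophage differentiation.

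The respiratory chain sits in the inner membrane of mitochondria. Complexes I and II pass electrons from NADH and succinate to ubiquinone, complex III passes them on to cytochrome c, and complex IV passes them to oxygen. Complexes I, III and IV pump protons, and complex V, the ATP synthase, uses the proton gradient to make ATP. Most subunits are encoded in the nucleus and a few in mitochondrial DNA. Macrophages are known to shift between respiration and glycolysis with their state of activation.

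Pebp1 averaged 37.2 FPKM in WT and was listed at 0 in each KO library. FPKM is a level scaled for transcript length and for library size. Libraries held 53188659 to 70059042 estimated counts, and the KO libraries were the deeper ones. About 4 estimated counts may stand for 1 sequenced fragment, so numbers of fragments may be smaller than the counts given. Macrophage markers were abundant in every library. The FPKM of 9 genes, mostly Lyz2, summed to 21565 to 23109 in WT and to 19390 to 19683 in KO. Of the 9, 2 rose (Adgre1 and Csf1r) and 5 fell (Lyz2, C1qa, C1qb, Cd68 and Fcgr1). Over all tested genes, 20.3% rose and 19.4% fell. Markers of other cells moved too: 7 of 7 tested neutrophil genes fell, from a summed 67.8 to 154 FPKM in WT to 2.98 to 3.29 in KO. Of 4 stromal genes, collagens made up most of the signal, with sums of 829 to 947 FPKM over both groups, and 0 of 3 tested passed the edgeR test. Of 5 B cell genes the 1 tested, Ebf1, rose. The T and NK cell genes and the erythroid genes in the table summed to at most 1.34 FPKM in any library. Ribosomal RNA took 0.773% to 1.22% of the counts in WT and 1.14% to 2.09% in KO, and the nuclear RNA Malat1 was at 66.1 to 86.7 FPKM in WT and 134 to 166 in KO (log2 fold change 0.94, edgeR adjusted p = 3.6e-05). The part of these cell types and RNAs in the results below was not tested, and in bulk RNA fewer cells of a type and less RNA per cell cannot be told apart.

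Nuclear transcripts of the respiratory chain had a median log2 fold change below 0 without RKIP in every complex. Of the 95 genes, 88 reached the mean of 1 FPKM needed for testing, and 70 of these fell and 0 rose (edgeR's quasi-likelihood test, Benjamini-Hochberg adjusted p under 0.05 over all genes tested). Over the whole table, 19.4% of the 11636 tested genes fell and 20.3% rose. The fold change was below 0 for 87 of the 88, and for 84 in limma on log2(FPKM + 1). DESeq2 also called 70 lower and 0 higher, limma 63 and 0, and at an unadjusted p under 0.05 edgeR had 71 and 0. The split over all genes varied with the tool and the scaling: edgeR called 2364 higher and 2253 lower, and limma on FPKM 2770 and 1639. DESeq2 called 2538 higher and 2343 lower, and edgeR scaled to library totals alone 2059 and 2622. The median log2 fold change of the 88 was -0.35, a 1.28-fold lower level, against -0.01 for all tested genes. In 66 of the 88, the FPKM of every KO library lay below that of every WT library, which held for 19.1% of all tested genes. Together the 95 genes took 0.510 ± 0.0149% of the estimated counts in WT and 0.415 ± 0.00803% in KO (SD, n = 3 each). The libraries did not overlap, from 0.499% to 0.527% in WT and from 0.408% to 0.424% in KO (exact two-sided permutation test, p = 0.1, the smallest that 3 against 3 allows).

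**Figure D1:**
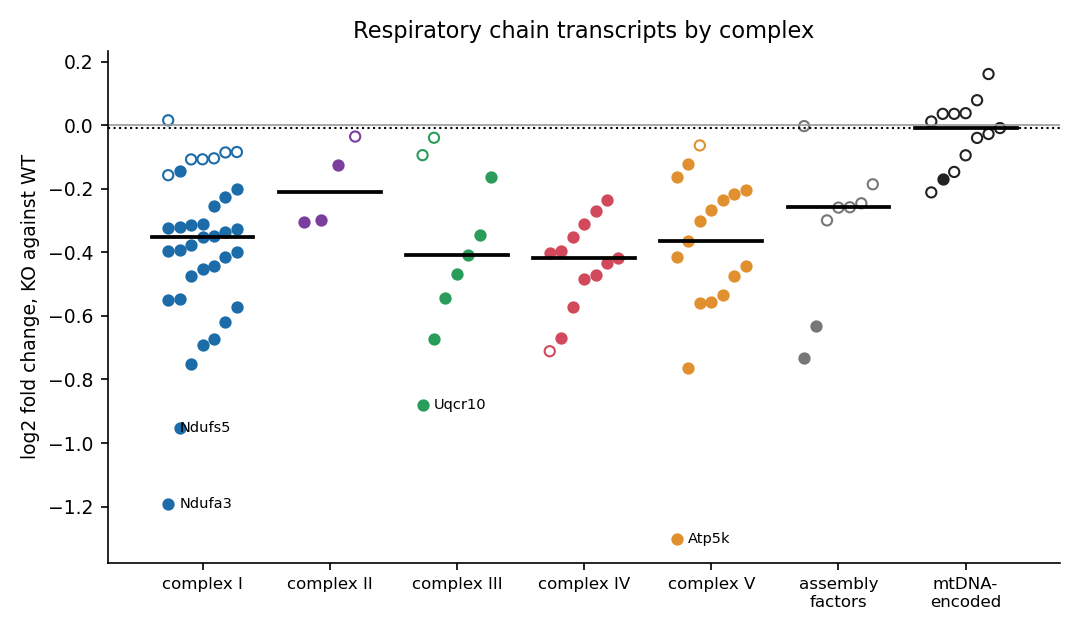
Log2 fold change of each tested subunit gene, KO against WT, by complex, with Nduf assembly factors and the 13 mtDNA-encoded genes at the right. Filled points passed the edgeR test (adjusted p under 0.05), open points did not, bars are medians and the dotted line is the median of all tested genes. The medians of complexes I, III, IV and V lie between -0.42 and -0.35, that of complex II at -0.21 and that of the mtDNA-encoded genes at -0.01.

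The medians were close to one another in complexes I, III, IV and V and nearer to 0 in complex II, though differences between complexes were not tested. The median log2 fold change was -0.35 in complex I (29 of 36 fell), -0.21 in complex II (3 of 4), -0.41 in complex III (7 of 9), -0.42 in complex IV (12 of 13 tested) and -0.36 in complex V (16 of 17). Against the WT mean, complex I had medians of -0.30, -0.40 and -0.38 (on the log2 scale of counts scaled to library size, CPM) in KO libraries 1 to 3. Complex IV had -0.31, -0.51 and -0.40, and complex V had -0.26, -0.48 and -0.35. Complex II, with 4 genes, stayed nearest to the WT mean, at -0.17, -0.19 and -0.23. The WT libraries spread from -0.08 to 0.06 over the 5 complexes, so no KO library overlapped the WT range in any complex. KO library 2 was lowest in complexes I, IV and V and KO library 3 in complexes II and III. Genes of short transcripts moved with them: protein-coding genes whose main transcript is under 600 bases had medians of -0.37, -0.52 and -0.47 in the same 3 libraries.

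**Figure D2:**
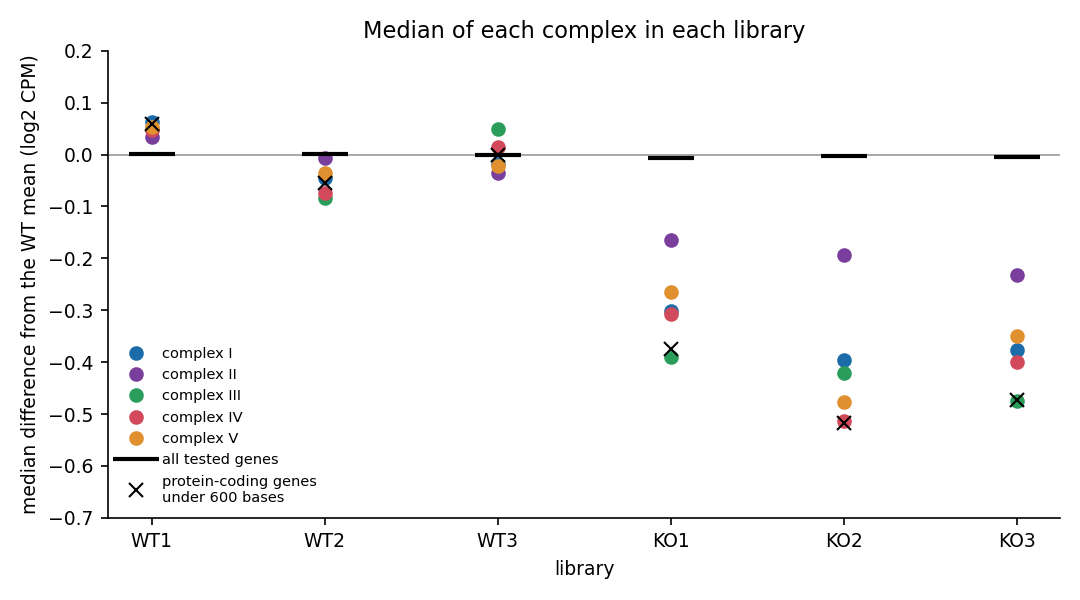
Median difference from the WT mean (log2 CPM) in each of the 6 libraries for the tested genes of complexes I to V, for all tested genes (bars) and for 123 protein-coding genes with a main transcript under 600 bases (crosses). In the 3 KO libraries the complexes lie between -0.51 and -0.17 while all tested genes stay near 0.

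Shorter transcripts went with larger falls. The subunits of the chain fall into a few large catalytic proteins and many small accessory ones, so transcript length goes along with role. Over 87 tested genes (the copy Ndufb4c left out), Spearman's rho between log2 fold change and the length of the main (APPRIS principal) transcript was 0.58, and between log2 fold change and coding length 0.67. The points share their 6 libraries and are not independent, so these are descriptions. In complex I the rho with coding length was 0.66 (36 genes), in complex V 0.82 (17 genes) and in complex IV 0.20 (13 genes). With main transcript length it was 0.62, 0.37 and 0.07, and with the longest transcript 0.02 in complex V. The same relation ran through the whole transcriptome, with a rho of 0.50 for main transcript length and 0.34 for coding length over 10438 protein-coding genes.

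Within each class of main transcript length, the respiratory chain genes had a lower median than all protein-coding genes of the class, a difference that was not tested. Under 600 bases, 18 of 18 fell with a median of -0.55, where 67.5% of 123 protein-coding genes fell with a median of -0.47. From 600 to 1000 bases, 25 of 30 fell with a median of -0.40, against 47.7% of 514 genes and a median of -0.24. From 1000 to 2000 bases, 22 of 30 fell with a median of -0.28, against 31.4% of 2160 genes and a median of -0.12. At 2000 bases or more, 5 of 10 fell with a median of -0.17, against 11.1% of 7641 genes and a median of 0.05. By the length of the longest annotated transcript, 33 of 38 respiratory chain genes under 1000 bases fell (median -0.43), against 44% of all tested genes (median -0.32). At or above it 37 of 50 fell (median -0.30), against 16.5%. By coding length, 20 of 21 genes under 300 bases fell with a median of -0.56, against 51.1% of 237 protein-coding genes. From 300 to 600 coding bases 33 of 41 fell (35.5% of 1186), from 600 to 1200 bases 11 of 15 (21% of 3042) and from 1200 bases on 5 of 10 (11.3% of 5973).

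**Figure D3:**
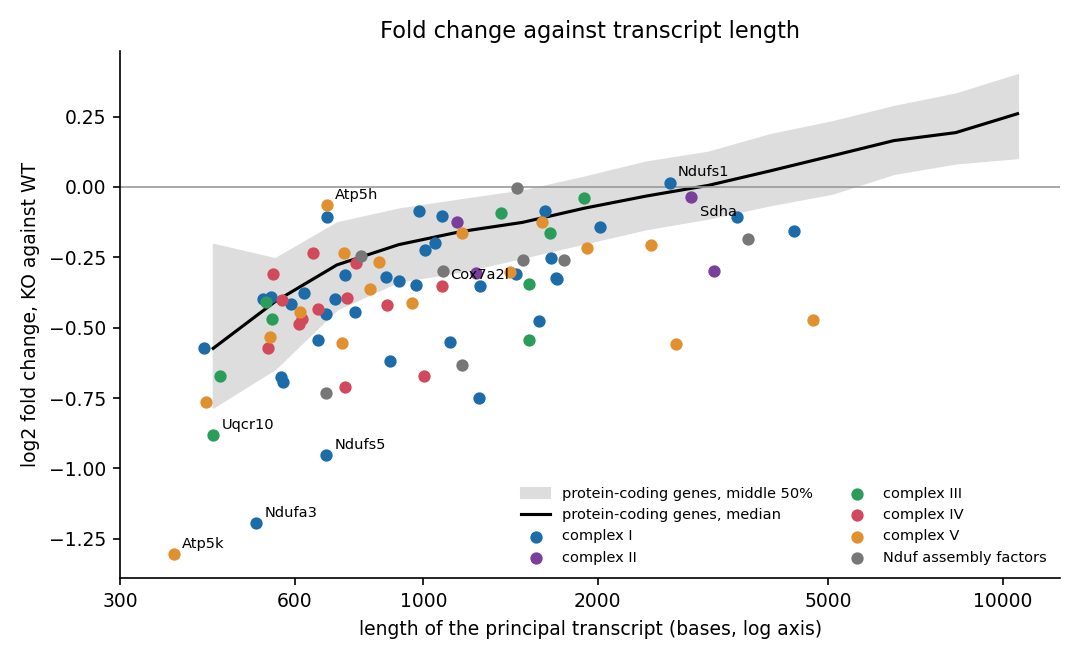
Log2 fold change, KO against WT, against the length of the principal transcript (log axis) for the tested respiratory chain genes, coloured by complex; the line and the grey band give the median and the middle 50% of protein-coding genes in length classes of at least 20 genes. Atp5k, Ndufa3, Ndufs5 and Uqcr10 lie lowest, and most points lie under the line.

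Because of this relation, the comparison was repeated after removing, in each library, the trend of counts with the GC content and length of the longest transcript. Then 40 of the 88 genes fell and 1, Atp5h, rose, where 16% of all tested genes fell and 15% rose. The median was -0.17, and 39 of the 40 had also fallen without the correction. With the trend taken on the main transcript in place of the longest, 33 fell, 32 of them among the 70, with a median of -0.16, where 16.2% of all genes fell. In the 4 classes of main transcript length, from short to long, this left 11 of 18, 6 of 30, 11 of 30 and 5 of 10 lower, against 36.6%, 11.7%, 14.1% and 15.8% of protein-coding genes. With the trend on the longest transcript the counts were 12 of 18, 11 of 30, 12 of 30 and 5 of 10, against 39.8%, 17.3%, 16.4% and 14.6%. By complex, the count corrected on the longest transcript was 12 of 36 in complex I, 1 of 4 in complex II and 6 of 9 in complex III. It was 8 of 13 in complex IV and 11 of 17 in complex V. The medians of complexes I to V were -0.17, -0.05, -0.22, -0.21 and -0.15. Corrected on the main transcript, the counts for complexes I to V were 11, 2, 4, 6 and 9. The rho with coding length was still 0.46 over the 87 genes after the correction on main transcripts, against 0.04 over protein-coding genes. The rho with main transcript length fell from 0.58 to 0.10, and that with the longest transcript from 0.41 to 0.03.

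**Figure D4:**
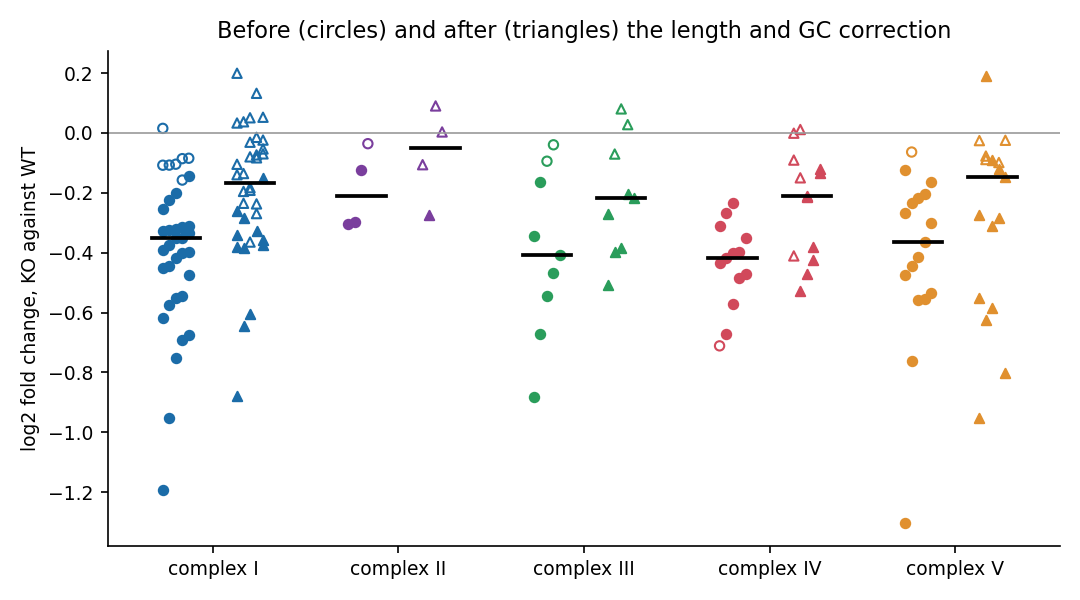
Log2 fold change of the tested subunits of complexes I to V before (circles, left) and after (triangles, right) the length and GC correction on the longest transcript; filled symbols passed the edgeR test (adjusted p under 0.05) and bars are medians. The medians move from between -0.42 and -0.21 to between -0.22 and -0.05, and Atp5h is the filled triangle above 0.

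Promoters are shown as a description, because genes of the chain are known targets of a few shared factors: NRF1, the GABP complex (an ETS factor), YY1 and the oestrogen-related receptors (ERR). For 74 of the 95 genes, RefSeq windows of GRCm38.p6 from 250 bases before to 50 bases after the start were matched by gene ID. Each motif was searched on both strands with no mismatch. The NRF1 letters, a palindrome printed in capitals for Ndufa11, were found in 7 of 74 genes (9.46%), against 1.07% of all 27025 genes with a window and 2.49% of the 8471 tested ones. The ETS letters CCGGAAG were in 19 (25.7%), against 9.93% and 21.8%. The YY1 letters AAGATGGC were in 11 (14.9%), against 3.19% and 5.75%, and the ERR letters TCAAGGTCA in 2 (2.7%), against 0.466% and 0.307%. The median log2 fold change was -0.39 with and -0.35 without the NRF1 letters, and -0.38 with and -0.35 without the ETS letters. For the YY1 letters the medians were -0.36 and -0.35, and for the ERR letters -0.43 and -0.35. A match is a description of the sequence and not a site shown to be used.

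The following 6 stretches, at least 1 from each complex, end 0 to 23 bases before the transcription start, hold no annotated exon and are given 5′ to 3′ along the gene, with the motif in capitals (ETS and ERR letters on the other strand read CTTCCGG and TGACCTTGA).
Ndufa11 (complex I, chr17:56717686-56717761, plus strand): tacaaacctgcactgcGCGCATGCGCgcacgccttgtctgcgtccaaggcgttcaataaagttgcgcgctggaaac
Sdhd (complex II, chr9:50603850-50603909, minus strand): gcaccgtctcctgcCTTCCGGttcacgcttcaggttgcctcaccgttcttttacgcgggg
Uqcr11 (complex III, chr10:80406831-80407071, minus strand): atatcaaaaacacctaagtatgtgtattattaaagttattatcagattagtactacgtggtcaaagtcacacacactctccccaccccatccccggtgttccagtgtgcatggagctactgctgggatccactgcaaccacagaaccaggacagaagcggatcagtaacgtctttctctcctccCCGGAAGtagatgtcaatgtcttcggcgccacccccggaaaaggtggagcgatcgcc
Cox6a1 (complex IV, chr5:115348982-115349129, minus strand): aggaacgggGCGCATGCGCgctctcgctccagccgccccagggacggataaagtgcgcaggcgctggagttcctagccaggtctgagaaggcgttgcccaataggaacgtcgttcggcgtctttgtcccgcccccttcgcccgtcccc
Atp5e (complex V, chr2:174464106-174464351, minus strand): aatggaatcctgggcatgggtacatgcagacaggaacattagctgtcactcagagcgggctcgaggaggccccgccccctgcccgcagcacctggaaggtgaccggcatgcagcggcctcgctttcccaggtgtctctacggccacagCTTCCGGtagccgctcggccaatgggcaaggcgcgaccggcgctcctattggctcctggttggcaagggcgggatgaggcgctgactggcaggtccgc
Atp5g3 (complex V, chr2:73911327-73911576, minus strand): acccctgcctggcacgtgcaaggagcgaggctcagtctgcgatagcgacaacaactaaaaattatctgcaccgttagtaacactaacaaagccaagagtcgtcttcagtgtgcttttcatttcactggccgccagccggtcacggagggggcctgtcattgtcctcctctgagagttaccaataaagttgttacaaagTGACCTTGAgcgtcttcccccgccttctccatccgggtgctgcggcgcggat

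These 6 genes each fell, and they differ in motif and in size of change. Genes that did not pass hold such letters too. The ETS letters were in 16 of 59 genes that fell and in 3 of 13 that did not pass. For NRF1 these counts were 6 and 1, for YY1 9 and 2 and for ERR 2 and 0. A link between motif and fall was not tested. Ndufa11, a membrane-arm subunit of complex I, and Cox6a1 hold the NRF1 letters, 60 and 162 bases before the start, and fell by 0.39 and 0.40 on the log2 scale. Cox6a1 also holds the ETS letters, 16 bases before its start and outside the stretch shown. Sdhd, Uqcr11 and Atp5e hold the ETS letters and fell by 0.30, 0.67 and 0.76. Atp5g3 holds the ERR letters 52 bases before its start and fell by 0.56.

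Complex I is the largest complex and starts the chain. Its catalytic core fell less than its accessory subunits: 4 of 7 core genes fell with a median of -0.20, and 25 of 29 accessory genes with a median of -0.40. Their median main transcripts were 1623 and 763 bases. After the length and GC correction on the longest transcript, 1 of 7 core genes fell with a median of 0.04. Of the accessory genes 11 of 29 then fell, with a median of -0.20. The difference between both classes was not tested. Ndufa3, a small subunit of the membrane arm, was measured at 11.4, 10.1 and 10.03 FPKM in WT and at 4.92, 4.81 and 4.58 in KO. Each KO library lay below each WT library. Ndufa3 fell 2.29-fold (log2 fold change -1.19 ± 0.11 SE, edgeR adjusted p = 1.5e-05), and was at -0.88 once length and GC were corrected for (edgeR adjusted p = 1.0e-04). It overlaps Tfpt on the other strand, so its level is uncertain. Ndufc1, another membrane-arm subunit, went from 4.44, 3.43 and 3.86 FPKM to 2.13, 2.28 and 2.79 (log2 fold change -0.75, adjusted p = 0.0029), and the groups did not overlap. Ndufa2 and Ndufs6, both accessory subunits of the NADH-oxidizing module, fell by 0.69 and 0.67 on the log2 scale. Ndufs5 is a case apart, because its processed copy Ndufs5-ps held 89.2% of the summed signal in WT. It was listed at 1.75 to 2.16 FPKM in WT and 0.846 to 1.14 in KO, its log2 fold change was -0.95, and that of gene and copy together was -0.75. Such pairs share nearly identical sequence, and how the authors' counting split their fragments is not given in the sources used here.

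The core subunits of complex I carry the electrons. Ndufs1, the largest iron-sulphur protein of the module that takes electrons from NADH, was at 8.16, 8.06 and 8.59 FPKM in WT and 8.52, 8.83 and 8.69 in KO. Its log2 fold change was 0.02 (adjusted p = 0.81), and the groups overlapped. Ndufs7, whose iron-sulphur cluster hands electrons to ubiquinone, was at 10.8 ± 0.756 and 10.6 ± 0.154 FPKM (-0.09, adjusted p = 0.40). The standard error of Ndufs1 was 0.04 on the log2 scale. Ndufv1, which binds NADH and flavin, fell by 0.25 on the log2 scale, and Ndufv2, its iron-sulphur partner, by 0.32. Ndufs8 fell by 0.23 and Ndufs3 by 0.20, both of the ubiquinone module, and after the length and GC correction their values were 0.04 and 0.05 and no longer passed. The accessory genes that did not pass were Ndufb2, Ndufc2, Ndufab1 and Ndufb5, with values between -0.16 and -0.10. Ndufc2 was called higher in KO when the replicate number was added as a block to the length and GC correction, but not with the correction alone. Ndufb2 overlaps Braf on the other strand in the table's coordinates, and its level near 1 FPKM makes its value uncertain.

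Nduf assembly factors build complex I and are not part of it. Of the 8, 2 fell, with a median of -0.26. This share of 25% is near the 19.4% of all tested genes that fell. With the length and GC correction on the longest transcript 2 of the 8 were lower, where 16% of all tested genes were. Of these 2, 1 had also fallen without the correction. On the main-transcript correction only Ndufaf4 was lower. Ndufaf2 went from 1.24 ± 0.176 FPKM to 0.773 ± 0.186 (log2 fold change -0.73, adjusted p = 0.013) and Ndufaf5 from 2.19 ± 0.385 to 1.46 ± 0.169 (-0.63, adjusted p = 0.015). Ndufaf1 was at 5.69 ± 0.305 and 5.89 ± 0.438 FPKM, with a log2 fold change of -0.003 that turned positive under median-ratio scaling. Ndufaf6, Ndufaf7, Ndufaf3, Ndufaf8 and Ndufaf4 had values from -0.30 to -0.19 and did not pass. These factors are weakly expressed, with a median of 2.41 FPKM in WT against 15.7 for complex I subunits and standard errors of 0.11 to 0.20.

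Complex II, the succinate dehydrogenase that also serves the citric acid cycle, fell in its membrane part, with values near 0 in its catalytic part. Sdhd, a membrane anchor that holds haem and ubiquinone, was at 70.7, 68.1 and 68.1 FPKM in WT and 60.4, 57.8 and 55.6 in KO. It fell 1.24-fold (log2 fold change -0.30 ± 0.05 SE, edgeR adjusted p = 4.1e-04) with no overlap. Sdhc, the other anchor, was at 27.8, 26.0 and 24.4 FPKM in WT and 21.6, 22.7 and 21.8 in KO, also without overlap, and fell by 0.30 on the log2 scale (adjusted p = 6.8e-04). Sdhb, the iron-sulphur subunit, fell by 0.12 (adjusted p = 0.035), though the FPKM of the groups overlapped and the call was lost in 5 of 6 fits that each left out 1 library. Sdha, the flavoprotein that oxidizes succinate, was at 51.7, 50.6 and 50.4 FPKM in WT and 51.3, 51.6 and 51.7 in KO (log2 fold change -0.04, adjusted p = 0.50). Its sign changed with limma on FPKM and with the length correction on the longest transcript. With that correction 1 of the 2 membrane anchors was lower (median -0.19), and with the correction on the main transcript 2 of 2 (median -0.23).

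In complex III all 5 small subunits fell, with a median of -0.54, and all 5 still fell after the length and GC correction on the longest transcript (median -0.38), but 4 after that on the main transcript, where Uqcrb did not pass (adjusted p = 0.079). Uqcr10, a small subunit of the membrane domain, was at 35.03, 28.9 and 33.3 FPKM in WT and 21.4, 15.5 and 17.9 in KO. It fell 1.84-fold (log2 fold change -0.88 ± 0.12 SE, adjusted p = 2.0e-04), and KO library 2 was the lowest. Uqcr11 fell by 0.67, Uqcrq by 0.54, Uqcrh, the hinge protein near cytochrome c, by 0.47, and Uqcrb, near the ubiquinone site, by 0.41 on the log2 scale. Of the redox subunits, Cyc1, the haem protein that reduces cytochrome c, went from 17.6 ± 1.45 to 14.4 ± 1.61 FPKM (-0.35, adjusted p = 0.010). Uqcrfs1, the Rieske iron-sulphur protein, was at 37.9 ± 1.82 and 36.8 ± 0.528 FPKM (-0.09, adjusted p = 0.17). Of the large core proteins, Uqcrc1 fell by 0.16, and Uqcrc2 was at -0.04 (adjusted p = 0.63) with overlapping groups and a positive sign under limma.

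Of the 13 tested genes of complex IV, 12 fell. After the length and GC correction 8 fell with the longest transcript and 6 with the main one. Cox7b, a small membrane subunit encoded on the X chromosome, was at 35.1, 34.0 and 34.9 FPKM in WT and 23.7, 21.8 and 22.3 in KO. It fell 1.59-fold (log2 fold change -0.67 ± 0.06 SE, edgeR adjusted p = 1.4e-05), and the 3 libraries of each group lay close together. Cox7c fell by 0.57 and Ndufa4, first assigned to complex I and now counted with complex IV, by 0.49. Cox6b1, which faces the intermembrane space, went from 96.01 ± 4.37 to 71.9 ± 1.498 FPKM (-0.47, adjusted p = 3.0e-05). Cox4i1 and Cox5a are among the nuclear subunits added first around the mtDNA-encoded core. Cox4i1 was at 148, 132 and 136 FPKM in WT and at 124, 116 and 118 in KO. It fell by 0.27 on the log2 scale (adjusted p = 0.0021), and its corrected value was 0.01. Cox5b fell by 0.42 and Cox5a by 0.24, the smallest fall among the 12. Cox8a, the smallest of these by coding length after Cox7c, fell by 0.31 and did not pass after the correction (adjusted p = 0.99).

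Where complex IV has alternative isoforms, the general form stood for nearly all of the signal in both groups. Per kilobase of main transcript, Cox4i1 made up 99.5% of the Cox4i pair in WT and 99.6% in KO. Cox6a1 held 99.6% and 99.4%, Cox6b1 98.7% and 98.4%, and Cox7a2 97.2% and 97.6% of their pairs, and Ndufa4 98.2% and 98.8% beside Ndufa4l2. Cox4i2, the form known from lung and from low oxygen, was measured at 1.31, 1.08 and 1.38 FPKM in WT and 1.10, 1.003 and 0.301 in KO. Its log2 fold change of -0.71 ± 0.39 SE did not pass (adjusted p = 0.17), and it rests on 18 to 67 estimated counts a library. Its value was -0.31 without KO library 3 and -1.02 without KO library 1. Cox6a2, Cox6b2, Cox7a1 and Ndufa4l2 did not reach the level for testing, and rows named Cox7b2, Cox8b or Cox8c were not among the 95. Ndufa4l2 had 1.17, 0.924 and 1.31 FPKM in WT and 0.735, 0.570 and 0.268 in KO.

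Cox7a2l, which joins complexes III and IV into supercomplexes and is known for alleles that differ between laboratory mouse strains, had a second source of signal. The gene was at 88.5, 82.8 and 81.5 FPKM in WT and 69.6, 64.7 and 71.5 in KO, a log2 fold change of -0.35 ± 0.05 SE (edgeR adjusted p = 2.8e-04). Its processed pseudogene Gm6969 (chromosome 12, 24638669 to 24639010, minus strand, coordinates as deposited) was at 2.16, 2.24 and 1.31 FPKM in WT and 45.9, 46.2 and 43.1 in KO. Gm6969 rose 22.6-fold (log2 fold change 4.50 ± 0.17 SE, adjusted p = 2.1e-08), from at most 47 estimated counts in any WT library to at least 1071 in any KO library. Summed over gene and copy, the log2 change in CPM was -0.15 in place of -0.35. The fall of Cox7a2l is therefore uncertain in size, and whether fragments of the gene were assigned to the copy in KO was not tested. The labels used here give no strain, and whether WT and KO mice carry the same alleles at Cox7a2l and Gm6969 was not tested.

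Complex V had the single largest fall. Atp5k, the e subunit at the membrane base of ATP synthase that helps pair the enzyme into dimers, was at 14.1, 12.2 and 14.2 FPKM in WT and 6.002, 5.08 and 5.91 in KO. No library of either group came near the other group. Atp5k fell 2.47-fold (log2 fold change -1.30 ± 0.14 SE, edgeR adjusted p = 2.9e-05), and its corrected value was -0.95 (adjusted p = 2.4e-04). It is also the tested gene with the shortest main transcript among subunits of the chain (371 bases), and it rests on 226 to 539 estimated counts a library. It lies on chromosome 5, 8.85 Mb from Pebp1. Cox6a1 lies 1.93 Mb from Pebp1 and fell by 0.40. The other small membrane subunits Atp5md, Atp5l, Atp5mpl and Atp5j2 fell by 0.56, 0.53, 0.44 and 0.41 on the log2 scale, giving a median of -0.53 over the 5.

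The catalytic head of ATP synthase had values nearer to 0, apart from its smallest subunit, though this difference was not tested. Atp5e, the epsilon subunit of the central stalk, was at 13.2, 11.7 and 11.1 FPKM in WT and 7.81, 6.57 and 7.62 in KO (log2 fold change -0.76 ± 0.10 SE, adjusted p = 9.7e-05). The abundant alpha subunit Atp5a1 went from 163 ± 3.31 to 147 ± 2.40 FPKM (-0.20, adjusted p = 0.0014) and the catalytic beta subunit Atp5b from 106 ± 1.49 to 94.9 ± 0.639 FPKM (-0.22, adjusted p = 8.6e-04). Both kept their groups apart, as did the delta subunit Atp5d at -0.30. The gamma subunit Atp5c1 fell by 0.16 with overlapping FPKM. In the peripheral stalk, Atp5j fell by 0.36, Atp5o by 0.27 and Atp5pb by 0.12, and Atp5h was at 38.8 ± 1.46 and 38.5 ± 2.11 FPKM (-0.06, adjusted p = 0.37). Once length and GC were corrected for, Atp5h stood at 0.19 (adjusted p = 0.0051), the 1 gene of the 88 called higher there.

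The proton-carrying c ring can be made from 3 genes that encode the same mature protein, and their proportions differed between the groups. Atp5g3 was at 36.1, 33.6 and 35.8 FPKM in WT and 25.6, 23.96 and 24.9 in KO (log2 fold change -0.56 ± 0.05 SE, edgeR adjusted p = 1.1e-05). Atp5g1 fell by 0.47, and Atp5g2 by 0.23 (adjusted p = 0.033) with overlapping FPKM. Per kilobase of main transcript, Atp5g3 made up 51.1 ± 1.97% of the 3 genes in WT and 45.7 ± 1.58% in KO. Atp5g2 made up 44.9 ± 2.25% and 50.5 ± 1.76%. Neither share overlapped between groups (exact two-sided permutation test, p = 0.1 for each, the smallest possible with n = 3). Atp5g1 made up 3.98 ± 0.334% and 3.77 ± 0.191%, which overlapped (exact permutation test, p = 0.5, n = 3). Matched pseudogenes held 16.3% of the summed signal for Atp5g1 and 17.2% for Atp5g2 in WT, so these shares are uncertain.

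**Figure D5:**
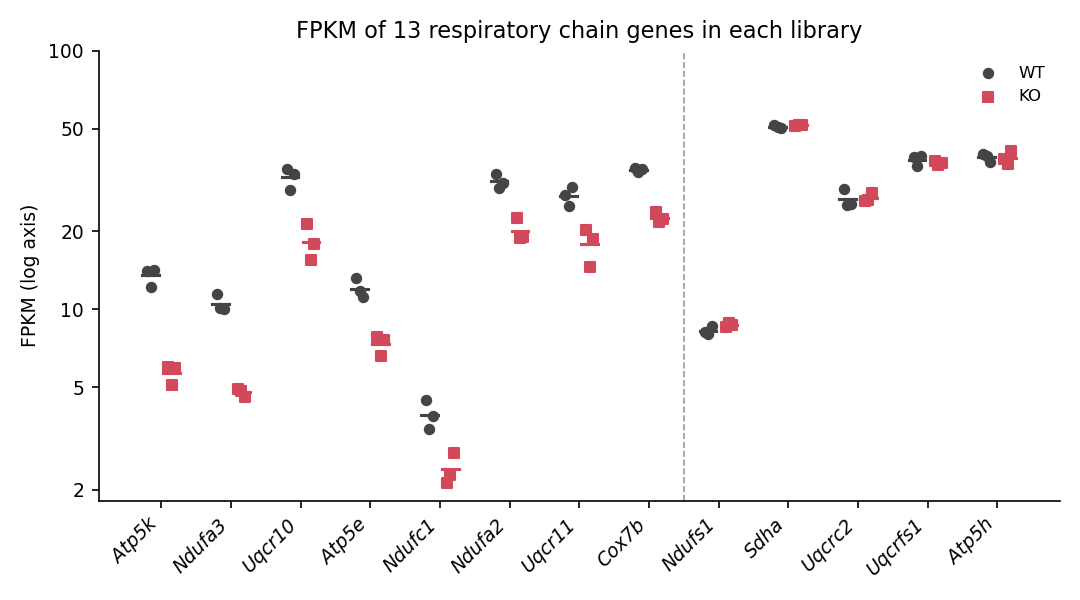
FPKM (log axis) in each of the 3 WT (circles) and 3 KO (squares) libraries for 8 small subunits that fell and, right of the dashed line, 5 genes that did not pass the test; bars are group means. The groups separate in each of the 8 and overlap in each of the 5.

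Some calls close to the threshold were lost when 1 library was left out, which also leaves fewer libraries for the test. Of the 70 genes that fell, 58 passed in each of the 6 fits that left out 1 library. The other 12 lost the call in at least 1 fit: Ndufa12, Ndufb4, Ndufs8, Ndufs3, Ndufa10, Sdhb, Atp5g2, Atp5c1, Atp5pb, Ndufaf2, Ndufaf5 and the copy Ndufb4c. Their highest adjusted p over the 6 fits was from 0.057 (Ndufaf2, without WT library 1) to 0.15 (Ndufb4c). The count of genes that fell was 60 without WT library 1, 65 without WT library 2 or 3, 63 without KO library 1 or 2 and 66 without KO library 3. Ndufaf7 passed as lower without WT library 3. Atp5g2 ranged from -0.33 to -0.15 and Sdhb from -0.15 to -0.11 on the log2 scale over these fits. Pseudogenes aligned to 39 of the 95 genes, all of them tested, and 36 of these fell (median -0.42). Of the 49 tested genes without such a match, 34 fell (median -0.31). For Ndufa12, the copy Ndufa12-ps held 44.9% of the summed signal in WT. The log2 change of gene and copies together was below 0 for each of the 39. In the table's coordinates 37 of the 95 overlap another gene, so their levels are uncertain as well, and 42 of the 52 tested genes without an overlap fell.

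Of 13 tested genes for transcription factors of mitochondrial biogenesis, 3 rose and 0 fell, with a median of 0.07 (0 fell at an unadjusted p under 0.05 or in DESeq2 either). These 3 are 23.1% of the list, near the 20.3% of all tested genes that rose. Corrected on the longest transcript 2 rose (Yy1 and Esrra) and 0 fell (median -0.02), and on the main transcript Yy1 rose and Pprc1 fell. Yy1 had 15.2 ± 0.654 FPKM in WT against 19.6 ± 0.0621 in KO and rose by 0.31 on the log2 scale (edgeR adjusted p = 2.1e-04), also after the correction (0.20). The GABP genes Gabpb2 and Gabpa rose by 0.20 and 0.15 (adjusted p = 0.011 and 0.049), and with length and GC corrected for their values were -0.02 and -0.04 and did not pass. Gabpa overlaps Atp5j in the table's coordinates. Nrf1 was at 2.26 ± 0.112 and 2.21 ± 0.179 FPKM (-0.09, adjusted p = 0.36), and Tfam, which packs and transcribes mitochondrial DNA, at 3.36 ± 0.504 and 3.72 ± 0.312 (0.09, adjusted p = 0.54). The coactivator gene Ppargc1a was at most 0.013 FPKM on average in either group.

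Of the 13 subunits encoded in mitochondrial DNA, 1 fell (mt-Co3, by 0.17, edgeR adjusted p = 0.044) and 0 rose, with a median of -0.01. At an unadjusted p under 0.05 the counts were 2 and 1, and DESeq2 called 1 lower and 1 higher. The catalytic subunit mt-Co1 of complex IV was at 5070.1 ± 605 FPKM in WT and 5228 ± 120 in KO (-0.01, adjusted p = 0.93). The summed share of these mRNAs was 2.11 ± 0.252% in WT and 2.07 ± 0.0626% in KO (exact two-sided permutation test, p = 0.8, n = 3 each). The difference between nuclear and mitochondrial genes was not tested as such. The short genes mt-Nd3 (348 bases) and mt-Atp8 (204 bases) did not pass and had values of -0.21 and 0.08. Corrected for length and GC on the longest transcript, mt-Nd3 was lower (-0.22, adjusted p = 0.015) and mt-Nd4l higher (0.16, adjusted p = 0.0062), and mt-Co3 no longer passed (-0.06, adjusted p = 0.21). On the main transcript 3 of the 13 were lower and 1 higher.

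Other genes that serve the chain were taken from fixed lists. Among assembly factors outside the name rule, 2 of 9 tested fell for complex I (Ecsit and Dmac1), 0 of 3 for complex II (1 at an unadjusted p under 0.05, 0 in DESeq2), 1 of 5 for complex III and 4 of 24 for complex IV, where 1 rose. These shares of 22.2%, 0%, 20% and 16.7% lie around or below the 19.4% of all tested genes that fell. After the correction on the longest transcript the counts that fell were 0, 0, 1 and 3, and neither Ecsit (-0.27, adjusted p = 0.10) nor Dmac1 (0.03, adjusted p = 0.81) passed. Uqcc2, which guides early complex III assembly and has a short main transcript of 500 bases, had 13.6 ± 0.704 FPKM in WT against 8.25 ± 1.14 in KO and fell by 0.78 on the log2 scale (edgeR adjusted p = 4.8e-04). For complex IV, Higd1a fell by 0.81, Pet100 by 0.72, the copper chaperone Cox17 by 0.38 and Higd2a by 0.27, while Sco1, another copper factor, rose by 0.27 (adjusted p = 0.0495). Corrected in the same way, Higd2a was at 0.08 (adjusted p = 0.39) and Sco1 at 0.24 (adjusted p = 0.067), and neither passed. Atpif1, the inhibitor of ATP synthase, fell by 0.31 and the assembly factor Tmem70 by 0.20, 2 of 5 tested for complex V. With the correction on the longest transcript 0 of the 5 fell and Atpaf2 rose, and Atpif1 was at -0.05 (adjusted p = 0.40) and Tmem70 at -0.11 (adjusted p = 0.25). Of 12 tested genes for electron carriers and coenzyme Q synthesis, 16.7% fell, namely Cycs (cytochrome c) by 0.44 and Coq5 by 0.34, and both also fell after the correction. Of 4 tested carriers of the inner membrane, the adenine nucleotide carriers Slc25a5 and Slc25a4 fell by 0.26 and 0.22 and the phosphate carrier Slc25a3 by 0.11, of which only Slc25a3 passed with the correction on the longest transcript and only Slc25a5 with that on the main one. The uncoupling protein Ucp2 was at 64.8 ± 2.42 and 64.6 ± 2.62 FPKM (-0.06, adjusted p = 0.33).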

How the data were processed

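Gene expression in 6 macrophage libraries, 3 WT and 3 KO by their labels, was taken from a table with FPKM and an estimated count per gene, both deposited by the authors per the file headers. The submitters' processing notes name cutadapt 1.9, HISAT2 2.0.4 and StringTie 1.3.4d. Neither the genome build nor the strand setting of the counting is given in the sources used here. Per the labels' protocols the libraries were made from poly(A) RNA with dUTP marking. The estimated counts are whole numbers as deposited and were tested as such, and their totals were 53188659 to 70059042 a library. A value of 4 was listed for 898 to 996 genes a library and a value of 3 for 511 to 561, so about 4 estimated counts may stand for 1 fragment and the totals may not be numbers of fragments. With the counts divided by 4 the same 70 genes were lower. Count divided by FPKM gave the length behind the FPKM, which equalled the union of all annotated exons within 1% for 97.1% of 11929 genes. FPKM is thus low for a gene with long rare isoforms, and levels are not comparable between such genes. The main test was edgeR 4.0.16 (quasi-likelihood, TMM scaling, two-sided; R 4.3.3) on the 11636 genes averaging 1 FPKM or more, with Benjamini-Hochberg adjustment and a threshold of 0.05. With counts divided by 4, libraries of 1 group differed beyond sampling noise, with a chi-square of 4.08 to 8.77 per degree of freedom. Transcript length, GC content and APPRIS principal transcripts came from GENCODE M21. The length and GC correction was a loess trend (span 0.3) per library, entered as an offset. Pseudogenes were aligned to the genes with minimap2 2.31 (cover of at least 50%). The genes, lists and most alternatives were chosen with earlier results of these data known. Named genes are the 3 lowest and 3 highest of each complex and of the assembly factors, the catalytic subunits, the isoform sets, and up to 4 genes of smallest p in each list. Genes named for their pseudogenes, for a promoter motif or for a call that a left-out library changes were chosen after their values were seen. The fits were tested on simulated counts. Alternatives were limma 3.58.1 on log2(FPKM + 1) and log2(FPKM + 0.1), DESeq2 1.42.0, other scalings and filters, length corrections, the replicate number as a block and leaving out each library. The values of 1 gene are not reported here, though it is part of the counts and medians.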

Additional observations from a re-analysis of the deposited data

How the results depend on the processing

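All values here are log2 fold changes or counts of genes. With limma on log2(FPKM + 1) the median of complex II was -0.15 and that of complex V -0.29, and on log2(FPKM + 0.1) that of complex II was -0.16. With the length and GC correction on the longest transcript, 40 genes were lower and 1 higher, and the medians of complexes I to V were -0.17, -0.051, -0.22, -0.21 and -0.15. Genes under 1000 bases then had a median of -0.14 and longer ones -0.20. With the replicate block added to this correction, 38 were lower and 2 higher (Atp5h and Ndufc2), with medians of -0.17, -0.052, -0.22, -0.21 and -0.15 by complex and -0.14 and -0.20 by length. On the main (APPRIS principal) transcript, 33 were lower and 1 higher, with -0.15, -0.090, -0.18, -0.15 and -0.16 by complex and -0.14 and -0.16 by length. On the exon union length, 46 were lower and 1 higher, with -0.20, -0.042, -0.27, -0.22 and -0.29 by complex and -0.20 under 1000 bases. These last corrections, and leaving out genes that overlap another (42 lower) or are matched by a pseudogene (34 lower), were chosen after seeing the data, and the last 2 counts are smaller because fewer genes enter. The cause of the other changes was not tested.

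Several genes changed sign, mostly with the corrections. Values follow in the order longest transcript, replicate block with it, main transcript and exon union. These put Atp5h at 0.19, 0.19, 0.23 and 0.12, Ndufaf8 at 0.054, 0.043, 0.015 and 0.077 and Ndufs7 at 0.13, 0.13, 0.11 and 0.071. They put Ndufs8 at 0.037, 0.036, 0.016 and 0.035, Sdhb at 0.090, 0.091, 0.092 and 0.015 and Uqcrfs1 at 0.080, 0.081, 0.044 and 0.12. The first 3 put Ndufs3 at 0.051, 0.052 and 0.023, and the first 2 put Cox4i1 at 0.011 and 0.012. On the main transcript Atp5c1 was at 0.0044, Atp5g2 at 0.036 and Cox5a at 0.061, and on the exon union Cox8a was at 0.0025. Sdha was at 0.018 and 0.018 in limma with a pseudocount of 1 and 0.1, and at 0.0033 and 0.0033 with the longest-transcript correction without and with the replicate block. In the same 4 fits Uqcrc2 was at 0.017, 0.017, 0.028 and 0.030, and it was at 0.0080 on the exon union and at 0.034 without WT replicate 1. Ndufs1 was at -0.013 without TMM scaling, at -0.0046 on the main transcript, at -0.11 on the exon union and at -0.0047 without WT replicate 2. Ndufaf1 was at 0.00052 under median-ratio scaling, 0.00015 without rRNA and mitochondrial genes, 0.00036 in DESeq2, 0.043 and 0.049 in limma, 0.018 with no filter and 0.0015 with counts divided by 4. It was at 0.14 and 0.14 in the longest-transcript correction without and with the replicate block, 0.10 on the main transcript and 0.17 on the exon union. Without WT replicate 1, WT replicate 3 or KO replicate 3 it was at 0.0048, 0.036 and 0.061.

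Leaving out 1 library at a time gave 60 to 66 genes lower and 0 higher. Over the same fits all genes ranged from 1794 to 2047 lower and from 1969 to 2272 higher. The medians ranged from -0.38 to -0.33 in complex I, -0.23 to -0.18 in complex II, -0.45 to -0.36 in complex III, -0.45 to -0.37 in complex IV, -0.41 to -0.31 in complex V, -0.48 to -0.39 under 1000 bases and -0.31 to -0.28 from there on. Of the genes that changed sign when a library was left out, Ndufs1 ranged from -0.0047 to 0.048, Uqcrc2 from -0.080 to 0.034 and Ndufaf1 from -0.046 to 0.061 over these fits. The replicate number as a block left 70 genes lower. Same-numbered WT and KO libraries deviated from their group means with correlations of 0.0230, 0.187 and -0.0379. For differently numbered libraries they ranged from -0.172 to 0.164. With 3 libraries a group, these values cannot show whether the numbers pair the samples. Without a filter 55 of 95 genes were lower, and with a mean of at least 5 FPKM 65 of 75. Low counts limit Cox4i2, Ndufs5 and the assembly factors.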

Other observations

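Of the 11 names with the pseudogene mark that the rule left out, 7 were tested and 6 fell. Of all 818 tested pseudogenes 44% fell and 2.93% rose, with a median of -0.38. Cox5b-ps, which the annotation lists as protein-coding, was at 5.56 ± 1.46 FPKM in WT and 2.76 ± 0.514 in KO (log2 fold change -1.06, edgeR adjusted p = 0.0054). Ndufb1-ps, annotated as a long non-coding RNA from a bidirectional promoter, was at 6.24 ± 0.303 and 3.69 ± 0.279 FPKM (-0.81, adjusted p = 4.5e-04). Ndufa12-ps fell by 1.10, Ndufs5-ps fell by 0.72, Atp5l2-ps fell by 1.52 and Atp5pb-ps fell by 0.69 on the log2 scale, while Ndufab1-ps was at -0.45 and did not pass. Processed pseudogenes of all kinds took 1.78 ± 0.0882% of the estimated counts in WT and 1.54 ± 0.0253% in KO (SD, n = 3 each).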
